A study of Mus musculus with 6 samples.

Results

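The genes described here take fatty acids into fat cells, bind them and activate them. The members were Lpl, Cd36, Fabp4, Fabp5, Acsl1, Slc27a1 and Vldlr, 7 genes chosen by name for their roles in lipoprotein lipolysis, uptake, binding and activation. All probe sets that the platform annotation pairs with these symbols were taken, and the brightest of them on average stood for its gene. Of the 7 genes 6 were found, with 19 probe sets out of the 45101 on the array; no probe set was listed under Acsl1, which was not analysed here. All 6 genes passed the filter on low signal, as did 18 of their 19 probe sets, and they were read against the 13040 genes that passed it.

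Fat was taken from NOD mice, which become diabetic through autoimmunity, and its total RNA was profiled on 6 Affymetrix arrays, 2 in each of 3 groups. The normoglycemic group came from females aged 10 weeks. The diabetic group had a blood glucose above 300 mg/dl on 3 consecutive days. The AAT-treated group had received alpha-1-antitrypsin, a serum protease inhibitor, and had stably reverted to insulin independence. The labels give age and sex for the normoglycemic mice alone, and name neither the fat depot nor the dose of AAT. Whether the duplicates were separate mice or pools is not stated, so p-values reflect the spread between these samples alone, which may be technical. Comparisons with the diabetic group share its 2 arrays, and comparisons with the normoglycemic group share those of that group.

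Triglyceride reaches fat in lipoproteins. Lipoprotein lipase, encoded by Lpl, is made by adipocytes and carried to the capillary wall, where it frees fatty acids; the receptor encoded by Vldlr binds triglyceride-rich lipoproteins there. Cd36 and the transport protein encoded by Slc27a1 move fatty acids into cells, Fabp4 and Fabp5 encode small cytosolic proteins that bind them, and Acsl1 encodes an enzyme that joins them to coenzyme A. Capillary endothelium also expresses Cd36 and Fabp4, and macrophages express several of these genes.

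The labelled tissue was checked against its markers. Of 10 adipocyte markers 7 had a probe set and all 7 passed the filter; the adipokine Adipoq had a signal between 15690 and 48984 on the 6 arrays, and Lep between 18.7 and 9408. Normoglycemic 1 and AAT-treated 2 stood apart from the other arrays. The hybridisation controls, which are spiked in at set concentrations, had a mean signal of 128547 on normoglycemic 1 and 86286 on AAT-treated 2; the remaining 4 arrays had 25159 to 48494. The sum of 11 endothelial markers was 4494 and 6905 on these 2 arrays and 16162 to 36197 on the rest. The 3' to 5' ratio of control probe sets rises with RNA degradation or incomplete copying. For beta-actin it was 3.63 and 4.30 in normoglycemic fat, 15.2 and 15.5 in diabetic fat and 9.08 and 5.87 after AAT treatment. Of the variance of this ratio on the log2 scale 94.4% lay between the groups, so it cannot be told apart from them. For Gapdh the ratio was 0.91 and 0.95, 2.46 and 4.63, and 2.31 and 0.79 in the same order, so the AAT-treated duplicates differed in it.

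Upstream sequence of Cd36 and Vldlr is printed because Vldlr was the gene whose groups separated and Cd36 the gene whose duplicates differed most, as described below. Of the 7 genes, Cd36, Acsl1, Slc27a1 and Vldlr were in the RefSeq promoter table (build GRCm38.p6) and Lpl, Fabp4 and Fabp5 were not. Each line gives 250 bases before a start site, read 5′ to 3′ on the gene's strand. For Cd36 this is chr5:17835897-17836146 on the minus strand, a window inside the span of the RefSeq gene, and for Vldlr chr19:27216234-27216483 on the plus strand, before the most upstream of 2 listed starts. Capitals mark AGGTCA, the single repeat bound by nuclear receptors such as PPARγ, and the general promoter motifs CCAAT and GGGCGG, each on either strand.
Cd36: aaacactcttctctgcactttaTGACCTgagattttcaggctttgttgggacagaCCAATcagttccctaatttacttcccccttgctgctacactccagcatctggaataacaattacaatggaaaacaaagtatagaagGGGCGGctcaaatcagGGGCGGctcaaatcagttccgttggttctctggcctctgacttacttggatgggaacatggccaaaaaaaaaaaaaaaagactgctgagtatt
Vldlr: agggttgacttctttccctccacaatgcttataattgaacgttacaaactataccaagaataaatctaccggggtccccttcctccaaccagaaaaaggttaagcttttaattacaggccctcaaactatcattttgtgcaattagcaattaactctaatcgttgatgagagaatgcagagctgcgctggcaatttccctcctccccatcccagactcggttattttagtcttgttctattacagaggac
The Cd36 window held 1 AGGTCA on the opposite strand, 1 CCAAT and 2 GGGCGG, with no overlap between them. The Vldlr window held 0 of each. AGGTCA on either strand was held by 14% of all 32851 listed windows of this length, CCAAT by 33.8% and GGGCGG by 32.7%. The full paired site AGGTCANAGGTCA, in which AGGTCA occurs 2 times, was in neither window and in 0.0335% of all windows.

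By limma, fitted over all 13040 genes on log2(signal + 75), 0 of the 6 genes passed an adjusted p of 0.05 in any comparison. The background was 0% in each, since 0 of the 13040 genes passed. Differences are therefore given as values, as log2 differences with the SE that limma fitted (n = 2 arrays a group), and a missed threshold does not show that groups were alike. Unadjusted p under 0.05 was reached by 1 of 6 genes in each comparison. In diabetic against normoglycemic fat this was Vldlr, higher; by this rule 9.9% of all genes were called, 5.28% higher and 4.62% lower. In AAT-treated against diabetic fat it was Slc27a1, lower, where 4.77% of all genes were called, 2.94% higher and 1.83% lower. In AAT-treated against normoglycemic fat it was again Vldlr, higher, where 5.12% were called, 3.4% higher and 1.72% lower.

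**Figure D1:**
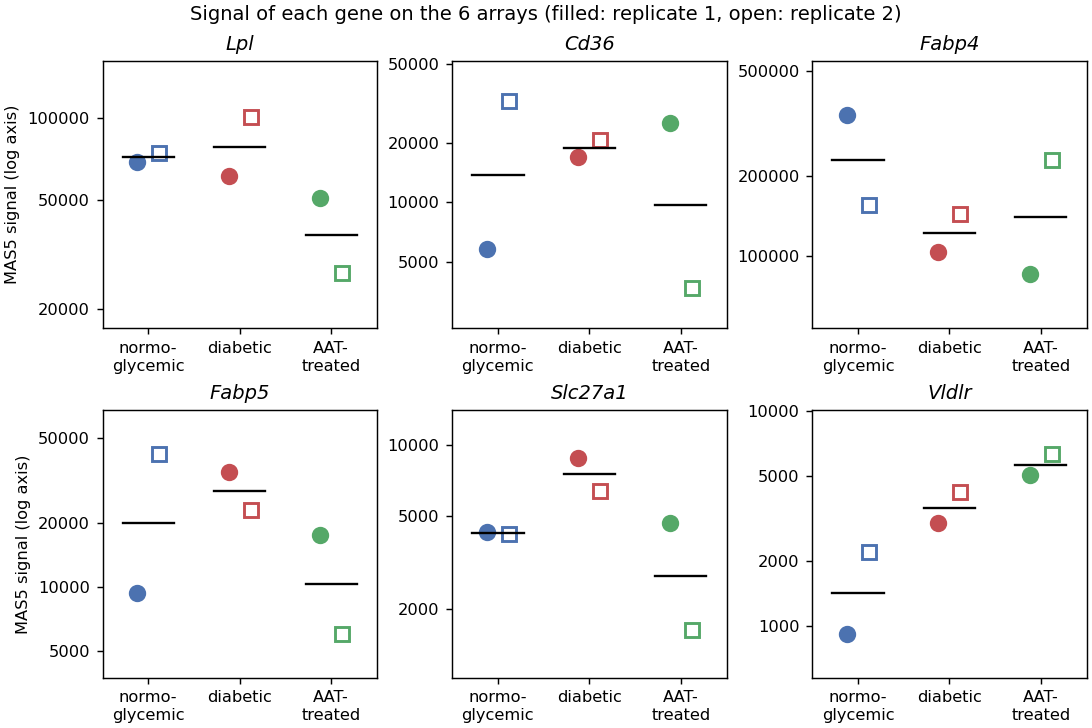
MAS5 signal of the 6 genes (log axes) on each array, by group; filled circles are replicate 1, open squares replicate 2, and bars the group mean taken on the log2 scale. Vldlr is ordered normoglycemic, diabetic, AAT-treated with no overlap, whereas for Cd36, taken as signal + 75, the duplicates lie 5.55-fold apart in normoglycemic and 6.74-fold apart in AAT-treated fat.

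Vldlr was the gene of the list that separated all groups. Its signals were 918 and 2200 in normoglycemic fat, 3010 and 4198 in diabetic fat and 5019 and 6312 after AAT treatment. Both AAT-treated arrays lay above both diabetic arrays, and these above both normoglycemic ones. AAT-treated exceeded normoglycemic fat by 1.92 ± 0.44, a 3.79-fold difference (95% interval 0.92 to 2.93, unadjusted p = 0.00207, adjusted p = 0.784 by limma), which put Vldlr at rank 30 of the 13040 genes by p. Diabetic exceeded normoglycemic fat by 1.27 ± 0.44 (95% interval 0.27 to 2.27), and AAT-treated exceeded diabetic fat by 0.65 ± 0.44 (95% interval −0.35 to 1.65). Without normoglycemic 1 the diabetic difference was 0.67 and the AAT-treated difference from normoglycemic fat 1.33; with the mean of the 5 kept probe sets they were 0.43 and 1.27.

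The other kept probe sets of Vldlr were also highest in AAT-treated fat, with smaller differences between diabetic and normoglycemic fat. The probe set above carries the suffix x, which Affymetrix gives to sets whose probes may also match other transcripts. On the other 4 kept probe sets AAT-treated exceeded normoglycemic fat by 0.87 to 1.37 and diabetic fat by 0.52 to 1.08, with no overlap between the groups on any of the 4. Probe set 1442169_at gave 275 and 202 in normoglycemic fat, 254 and 290 in diabetic fat and 555 and 684 after AAT treatment. Between diabetic and normoglycemic fat these 4 sets differed by 0.092 to 0.34 and the groups overlapped on each. With each probe set tested separately, unadjusted p for AAT-treated against normoglycemic fat lay between 0.00183 and 0.0358 for the 5 sets, and adjusted p was 0.935 for each by limma. The 5 sets measure 1 gene in the same RNA and are not replicates. The sixth set, which did not pass the filter, had signals between 10.3 and 144.

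Vldlr is also expressed in muscle, and smooth muscle markers were also highest in AAT-treated fat. All 8 smooth muscle markers were higher in AAT-treated than in diabetic and than in normoglycemic fat, with no overlap, where 17.9% and 16.1% of all genes were. Their summed signal was 7193 and 29663 in normoglycemic fat, 14701 and 10004 in diabetic fat and 57013 and 86937 after AAT treatment. The muscle myosin Myh11 alone had 346 and 3045, 849 and 617, and 6346 and 11589 in the same order. Of 11 skeletal muscle markers 3 passed the filter, and the 11 summed to 6216 on AAT-treated 1, where the other arrays had 882 to 2709. The fast myosin Myh1 had 2659 on AAT-treated 1 and 279 or less elsewhere. The other kept markers did not follow it: Ckm was lowest on AAT-treated 1, at 39.4, and Acta1 highest on normoglycemic 2, at 2090. Of the 3 kept markers 1 was higher and 2 lower in AAT-treated than in normoglycemic fat (median −1.09). Against diabetic fat 2 were higher and 1 lower (median 0.44). The part of either kind of muscle RNA in the Vldlr difference was not tested. In bulk tissue, fewer cells of a type and less RNA per cell cannot be told apart.

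Lpl, the lipase, was lower in AAT-treated fat than in both other groups. Its signals were 69009 and 74330 in normoglycemic fat, 61149 and 100873 in diabetic fat and 51103 and 27132 after AAT treatment. Both AAT-treated arrays lay below the other 4, while normoglycemic and diabetic arrays overlapped. AAT-treated differed from diabetic fat by −1.08 ± 0.51 (95% interval −2.23 to 0.08, unadjusted p = 0.0647, adjusted p = 0.961 by limma) and from normoglycemic fat by −0.94 ± 0.51 (95% interval −2.10 to 0.21). Diabetic and normoglycemic fat differed by 0.13 ± 0.51. The other probe set of Lpl gave −0.70 and −0.82 for the AAT-treated differences, with overlap in both. The lowest array, AAT-treated 2, also had the lowest summed signal of the 7 adipocyte markers, 77945, where the other arrays had 89580 to 176522. Of these markers Adipoq, Retn and Lipe were lowest on that array, while Cidec, Lep, Pnpla2 and Gpd1 were not. The part of adipocyte RNA in the Lpl difference was not tested. Without AAT-treated 2 the Lpl differences were −0.62 and −0.49.

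Slc27a1, the fatty acid transport protein, was highest in diabetic fat. Its signals were 4237 and 4163 in normoglycemic fat, 8794 and 6367 in diabetic fat and 4630 and 1631 after AAT treatment. The diabetic arrays lay above all others, and normoglycemic arrays fell between the AAT-treated ones. Diabetic exceeded normoglycemic fat by 0.82 ± 0.48 (95% interval −0.28 to 1.92). AAT-treated differed from diabetic fat by −1.42 ± 0.48, a 0.375-fold level (95% interval −2.52 to −0.32, unadjusted p = 0.0177, adjusted p = 0.961 by limma), and by −0.68 without AAT-treated 2. From normoglycemic fat AAT-treated fat differed by −0.59 ± 0.48, and by 0.14 without AAT-treated 2. The second probe set, 1422811_at, gave smaller differences: 0.097 for diabetic against normoglycemic fat and −0.48 for AAT-treated against diabetic fat, where the lower diabetic and the higher AAT-treated array both read 3143.

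Fabp5, one of the binding proteins, varied widely within groups. Its signals were 9329 and 42351 in normoglycemic fat, 34578 and 23053 in diabetic fat and 17568 and 5981 after AAT treatment. The AAT-treated arrays lay below the diabetic ones, but the normoglycemic arrays spanned nearly the whole range and were 4.51-fold apart as signal + 75. AAT-treated differed from diabetic fat by −1.45 ± 0.75 (95% interval −3.18 to 0.27) and from normoglycemic fat by −0.95 ± 0.75. The first of these was −0.68 without AAT-treated 2 and −2.22 without AAT-treated 1, and the other ranged from −2.04 without normoglycemic 1 to 0.14 without normoglycemic 2. Diabetic exceeded normoglycemic fat by 0.50 ± 0.75, which became −0.58 without normoglycemic 1. On the second probe set, 1416022_at, the diabetic difference was −0.67 and the AAT-treated against diabetic difference −0.23.

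Cd36, the fatty acid translocase, lay far apart on the duplicates of the normoglycemic and of the AAT-treated group, and 1.22-fold apart (as signal + 75) on the diabetic ones. Its signals were 5783 and 32465 in normoglycemic fat, 17055 and 20786 in diabetic fat and 25237 and 3678 after AAT treatment. Normoglycemic 1 and AAT-treated 2 were low, and the other 4 arrays lay within 17055 to 32465. Diabetic exceeded normoglycemic fat by 0.45 ± 0.97 (95% interval −1.76 to 2.67). AAT-treated differed from diabetic fat by −0.96 ± 0.97 and from normoglycemic fat by −0.50 ± 0.97. Without normoglycemic 1 the first of these differences was −0.78, and without AAT-treated 2 the other values were 0.42 and 0.87. The same 2 arrays were lowest on all 3 probe sets of Cd36, and the groups overlapped on each of them in every comparison.

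Gpihbp1, which encodes the endothelial protein that carries the lipase to the capillary lumen, had the same low arrays. Its signals were 1201 and 13938 in normoglycemic fat, 5289 and 4410 in diabetic fat and 15715 and 992 after AAT treatment. The endothelial markers summed lowest on the same arrays, and Cldn5, of endothelial junctions, had 429 and 7521, 3548 and 2475, and 5963 and 753. Emcn, of the same list, was lowest on diabetic 2: it had 528 and 1709, 581 and 436, and 1352 and 602. The 11 markers summed to 4494 and 36197 in normoglycemic fat, 23806 and 16162 in diabetic fat and 35237 and 6905 after AAT treatment. The part of endothelial RNA in the Cd36 values was not tested. Diabetic exceeded normoglycemic fat in Gpihbp1 by 0.21 ± 1.31. After AAT treatment it differed by −0.26 ± 1.31 from diabetic and by −0.043 ± 1.31 from normoglycemic fat. Without normoglycemic 1 the first of these was −1.51, and without AAT-treated 2 the others were 1.69 and 1.90.

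Fabp4, the adipocyte fatty acid binding protein, gave opposite patterns on its probe sets. The set with the highest signal, 1417023_a_at, had 339475 and 155628 in normoglycemic fat, 104038 and 144806 in diabetic fat and 85600 and 229987 after AAT treatment. Both diabetic arrays lay below both normoglycemic ones, and the AAT-treated arrays spanned the diabetic range. Diabetic differed from normoglycemic fat by −0.90 ± 0.67 (95% interval −2.45 to 0.64), and by −0.34 without normoglycemic 1. With quantile normalization this difference was 0.037. AAT-treated differed from diabetic fat by 0.19 ± 0.67 and from normoglycemic fat by −0.71 ± 0.67.

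The second set of the a type, 1451263_a_at, followed the first, with differences of −0.93, 0.055 and −0.87 in the same order. The other 2 sets of Fabp4 were lowest, not highest, on the arrays with the brightest controls. Set 1424155_at had 1522 and 7084 in normoglycemic fat, 5478 and 4851 in diabetic fat and 8517 and 520 after AAT treatment. On this set AAT-treated differed from diabetic fat by −1.21 ± 1.10, and on 1425809_at by −1.22 ± 1.08. On 1417023_a_at the arrays ranked normoglycemic 1, AAT-treated 2, normoglycemic 2, diabetic 2, diabetic 1 and AAT-treated 1, and the hybridisation controls ranked the arrays in that same order. The part of hybridisation brightness in the Fabp4 values was not tested; with the control signal as a covariate diabetic differed from normoglycemic fat by −0.026 in Fabp4, and AAT-treated fat by −0.096 from diabetic and by −0.12 from normoglycemic fat. As the mean of its 4 kept probe sets Fabp4 differed by −0.23 between diabetic and normoglycemic fat.

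**Figure D2:**
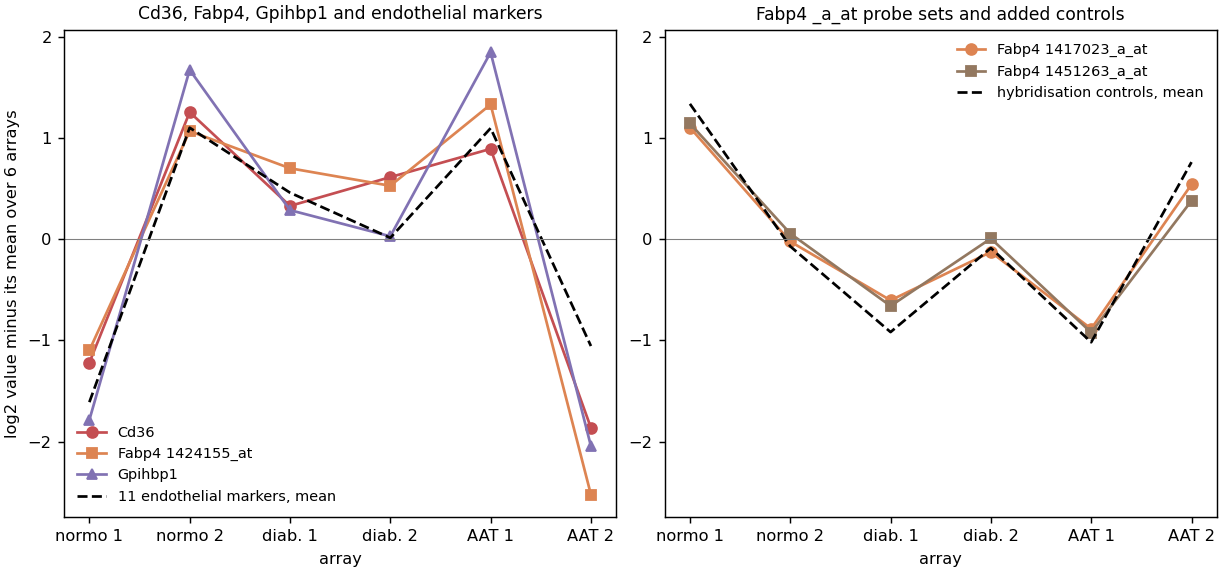
Log2 values on the 6 arrays minus their mean; dashed lines are the mean of 11 endothelial markers (left) and of the hybridisation controls (right). Cd36, Gpihbp1 and Fabp4 set 1424155_at are low on normoglycemic 1 and AAT-treated 2, where both Fabp4 sets of the a type and the controls are high.

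**Figure D3:**
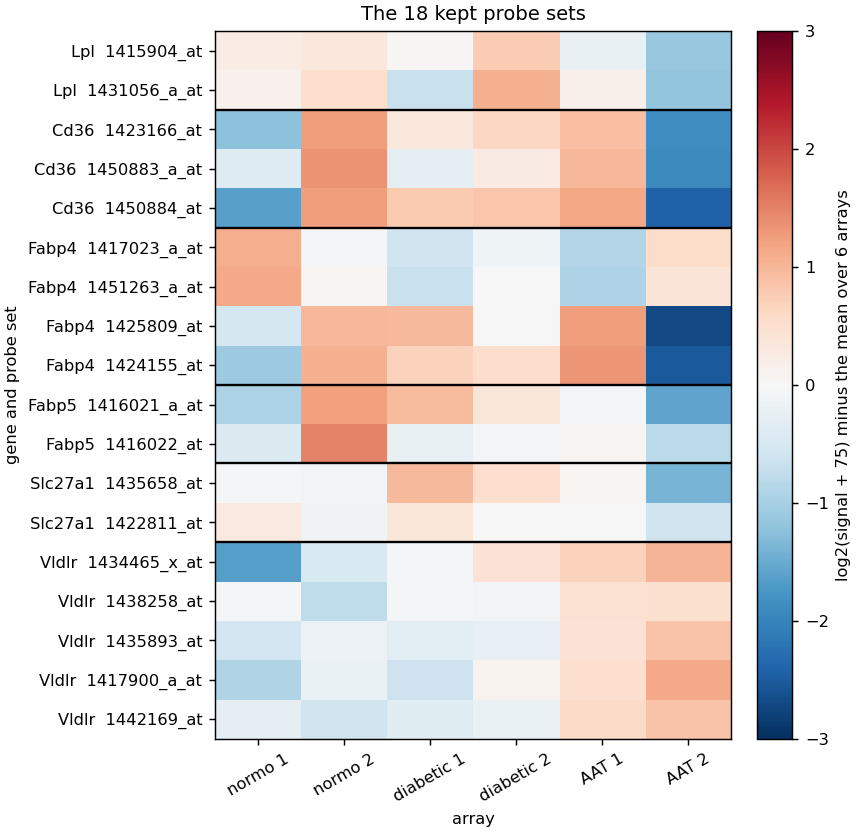
The 18 kept probe sets of the 6 genes (rows) on the 6 arrays (columns); colour is log2(signal + 75) minus the mean over the arrays. The 5 Vldlr sets are highest on the AAT-treated arrays, and the 4 Fabp4 sets split into 2 opposite patterns.

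Over all 18 kept probe sets 13 were higher in diabetic than in normoglycemic fat. AAT-treated fat was higher than diabetic fat on 7, of which 5 were of Vldlr and 2 of Fabp4. It was higher than normoglycemic fat on 5, all of Vldlr. Several sets of a gene share its RNA, so these counts are no larger sample than the 6 genes.

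By gene, diabetic exceeded normoglycemic fat for 5 of 6, where 46.4% of all genes were higher and 53.6% lower, and the median difference was 0.48 against −0.055 over all genes. The groups did not overlap for Slc27a1 and Vldlr, higher, and Fabp4, lower; over all genes 44.7% did not overlap, 20.2% higher and 24.5% lower. Without normoglycemic 1 the median of the 6 was −0.13, with 3 of 6 higher, and without normoglycemic 2 it was 1.20, with 5 of 6 higher. With the hybridisation controls as a covariate the median was −0.061, with 2 of 6 higher. With the mean of all kept probe sets it was 0.16, with 4 of 6 higher, and with quantile normalization 0.54, with 6 of 6 higher. In AAT-treated fat 4 of 6 genes were lower than in diabetic fat, where 48.8% of all genes were lower and 51.2% higher, with a median of −1.02 against 0.011. Lpl, Fabp5 and Slc27a1 lay below without overlap and Vldlr above; 33.8% of all genes did not overlap, 15.9% lower and 17.9% higher. This median was −0.57 without AAT-treated 2 and −1.84 without AAT-treated 1, with 4 of 6 lower in both. Against normoglycemic fat 5 of 6 genes were lower in AAT-treated fat, where 52% of all genes were lower and 48% higher, with a median of −0.65 against −0.025. Here Lpl lay below and Vldlr above without overlap; 32.1% of all genes did not overlap, 16.1% in each direction. This median was −0.020 without AAT-treated 2 and −0.23 without normoglycemic 2, with 3 of 6 lower in both, and −1.36 without AAT-treated 1, with 4 of 6 lower. All 7 adipocyte markers were also lower in AAT-treated than in normoglycemic fat, 4 without overlap, with a median of −0.55, and their part in the members' values was not tested. With the beta-actin ratio as a covariate Lpl, Cd36, Fabp4, Fabp5 and Slc27a1 turned sign both in diabetic against normoglycemic and in AAT-treated against diabetic fat, and Vldlr did not. That ratio has 94.4% of its variance between the groups, so this fit cannot show which of the genes was steadier.

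**Figure D4:**
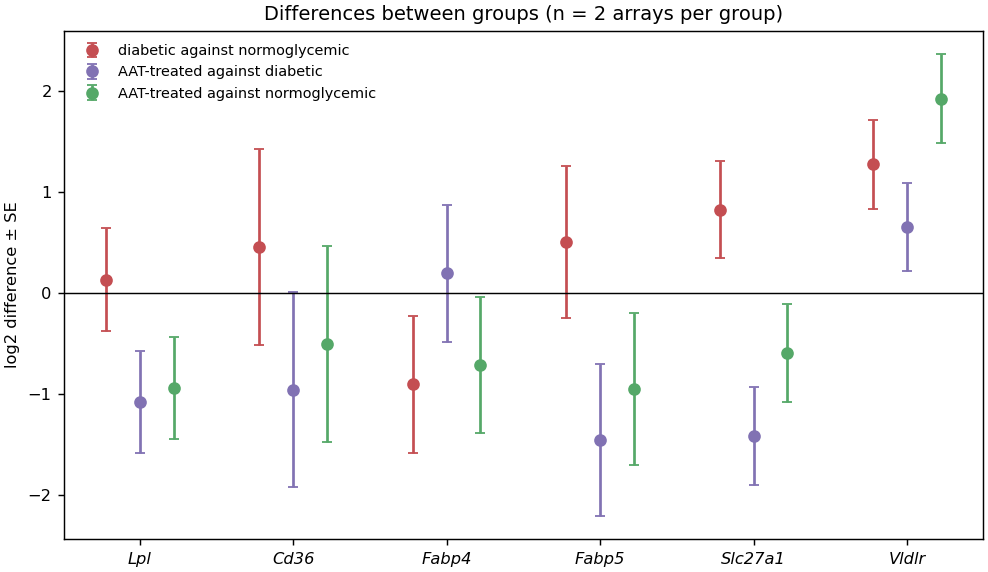
Log2 difference ± SE (limma, n = 2 arrays per group) of each gene in the 3 comparisons. Vldlr lies above 0 in all 3, at 1.27, 0.65 and 1.92, and 5 genes lie below 0 in AAT-treated against normoglycemic fat.

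Macrophages hold several of these transcripts, and their markers were higher in diabetic fat. Of 13 macrophage markers 12 passed the filter, all except Itgam. All 12 were higher in diabetic than in normoglycemic fat, 8 without overlap, where 20.2% of all genes were higher without overlap. The 13 summed to 9586 and 9822 in normoglycemic fat, 22896 and 36909 in diabetic fat and 23624 and 13465 after AAT treatment. The part of macrophage RNA in the values of Slc27a1, Fabp5 and Vldlr was not tested. Of 7 brown fat markers 6 had a probe set and 4 passed the filter. Ucp1 did not pass it, at 124 or less on every array. The 4 that passed were Cidea at 140 to 398, Dio2 at 236 to 472, Elovl3 at 180 to 898 and Ppargc1a at 205 to 499. B cell markers summed to 2286 and 1847 in normoglycemic fat, 1497 and 5827 in diabetic fat and 30504 and 11603 after AAT treatment. After AAT treatment Ighm held 19419 and 3925 of these sums and Jchain 9846 and 5310. All 5 kept B cell markers were higher in AAT-treated than in diabetic fat. Against normoglycemic fat 3 were higher and 2, Ms4a1 and Blnk, were lower. The 9 mammary epithelial markers summed to 10351 on AAT-treated 2 and 1696 to 4202 elsewhere. On AAT-treated 2 the keratins Krt18, Krt8 and Krt5 held 5150, 2237 and 1742 of this sum. Epcam was lowest on that array, at 153, and Csn2 and Wap were within the range of the other arrays.

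The wider pathway was read from 79 other genes in 6 lists; 73 had a probe set and 60 passed the filter. None of the 60 passed the adjusted threshold by limma, against 0% of all genes. In diabetic against normoglycemic fat 32 of the 60 were higher, with a median of 0.044, where 46.4% of all genes were higher. An unadjusted p under 0.05 was reached by 2 higher and 1 lower gene, where 9.9% of all genes reached it. After AAT treatment 40 of 60 were lower than in diabetic fat, with a median of −0.15, where 48.8% of all genes were lower, and 1 higher and 2 lower genes reached that p, against 4.77% of all genes. In AAT-treated against normoglycemic fat 38 of 60 were lower, with a median of −0.15, where 52% of all genes were lower, and 1 lower gene reached it, against 5.12% of all genes. The counts for AAT-treated fat moved with the setting. With arrays scaled to equal medians 31 of 60 were higher than in normoglycemic fat (median 0.0050), where 61.5% of all genes were higher. Against diabetic fat 33 of 60 were lower without diabetic 2, where 50.7% of all genes were higher. Without AAT-treated 2 it was 34 of 60, where 46.5% of all genes were higher.

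Of 13 measured genes of lipoprotein lipolysis 10 were higher in diabetic than in normoglycemic fat (median 0.21) and 12 were lower in AAT-treated than in diabetic fat (median −0.35). Sel1l, which helps the lipase leave the endoplasmic reticulum, had 686 and 1470 in normoglycemic fat, 1896 and 2106 in diabetic fat and 1688 and 947 after AAT treatment, a diabetic difference of 0.94 ± 0.43. This was 0.42 without normoglycemic 1, 1.45 without normoglycemic 2 and 0.12 as the mean of its kept probe sets. Apoc3 encodes an apolipoprotein that inhibits the lipase. It had 734 and 224 in normoglycemic fat, 1723 and 662 in diabetic fat and 262 and 488 after AAT treatment. AAT-treated differed from diabetic fat by −1.40 ± 0.59 in Apoc3. From normoglycemic fat it differed by −0.17 ± 0.59, with overlap. The lipase maturation factor Lmf1 was at 98.1 and 132 in normoglycemic fat, 148 and 425 in diabetic fat and 276 and 237 after AAT treatment. Angptl4, a secreted inhibitor of the lipase, was at 2774 and 10611, 4844 and 6339, and 9072 and 2182 in the same order, low again on normoglycemic 1 and AAT-treated 2. Apoe, a ligand of lipoprotein receptors, ranged from 6682 to 14789.

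Of 7 lipoprotein receptor and uptake genes 6 were higher in diabetic than in normoglycemic fat (median 0.55) and 6 were lower in AAT-treated than in diabetic fat (median −0.43). The sorting receptor Sorl1 had 675 and 404 in normoglycemic against 898 and 1380 in diabetic fat, a difference of 0.99 ± 0.40. Lrp1, a large endocytic receptor, was at 1647 and 1632, 2386 and 4012, and 4172 and 1507 in the 3 groups.

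Among 8 fatty acid uptake genes, 4 were higher in diabetic than in normoglycemic fat. Slc27a4, a relative of Slc27a1, had 636 and 404 in normoglycemic fat, 1229 and 967 in diabetic fat and 927 and 873 after AAT treatment. Diabetic exceeded normoglycemic fat by 0.998 ± 0.34 (unadjusted p = 0.0169, adjusted p = 0.481 by limma), and AAT-treated exceeded it by 0.74 ± 0.34. Neither group overlapped with the normoglycemic arrays. Cav1, of the membrane pits called caveolae, ranged from 13954 to 53303, and its groups overlapped in every comparison.

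Of the 9 genes on the fatty acid binding list 6 were lower in diabetic and 8 lower in AAT-treated than in normoglycemic fat. The medians were −0.17 and −0.37. The list also holds acyl-CoA binding genes and the retinol carrier Rbp4, which was lower in both, by −0.36 and −0.61. Acbd3, which holds an acyl-CoA binding domain, differed by −0.77 ± 0.39 between diabetic and normoglycemic fat, and AAT-treated exceeded diabetic fat by 0.62 ± 0.39. Of 12 genes that make or cleave acyl-CoA 9 were lower in diabetic than in normoglycemic fat (median −0.35). Acsf2, an acyl-CoA synthetase, had 436 and 266 in normoglycemic fat, 45.0 and 157 in diabetic fat and 32.4 and 82.1 after AAT treatment, so both other groups lay below the normoglycemic one, by −1.32 ± 0.62 and −1.68 ± 0.62. Among the relatives of Acsl1, Acsl4 was between 1090 and 1771, Acsl5 between 744 and 1866 and Acsl3 between 101 and 440 on the 6 arrays. The thioesterases Acot9 and Acot8 differed by 0.82 ± 0.32 and −0.68 ± 0.36 between AAT-treated and diabetic fat, and Acot11 by 0.98 ± 0.63 between AAT-treated and normoglycemic fat.

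Of 11 regulators 6 were higher in diabetic than in normoglycemic fat. Pparg, the nuclear receptor that drives adipocyte genes including Fabp4, Cd36 and Lpl, had 2151 and 2865 in normoglycemic fat, 927 and 1735 in diabetic fat and 1996 and 1717 after AAT treatment. Diabetic differed from normoglycemic fat by −0.93 ± 0.37, with no overlap. AAT-treated exceeded diabetic fat by 0.52 ± 0.37 and differed from normoglycemic fat by −0.41 ± 0.37. Ppargc1b, a coactivator of mitochondrial genes, had 769 and 593, 3188 and 1342, and 927 and 111 in the 3 groups. AAT-treated differed from diabetic fat by −2.32 ± 0.73 for this gene (unadjusted p = 0.0124, adjusted p = 0.961 by limma), by −1.10 without AAT-treated 2 and by −3.53 without AAT-treated 1. Cebpb exceeded diabetic fat by 0.59 ± 0.37 and normoglycemic fat by 0.75 ± 0.37 in AAT-treated fat, while Nr1h3 and Ppara lay below normoglycemic fat by −0.55 ± 0.32 and −0.63 ± 0.38.

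Single arrays moved several of these pathway values. Between diabetic and normoglycemic fat, Pparg was −0.50 without diabetic 1 and −1.35 without diabetic 2, and Acsf2 −0.84 and −1.80. Between AAT-treated and diabetic fat, Apoc3 was −0.76 without diabetic 1 and −2.04 without diabetic 2, Cebpb 0.20 and 0.99, and Pparg 0.090 and 0.94. In that comparison Acbd3 was 0.14 without AAT-treated 2 and 1.10 without AAT-treated 1. Between AAT-treated and normoglycemic fat, Acot11 ranged over the arrays left out from 0.25 without AAT-treated 2 to 1.72 without AAT-treated 1. There Slc27a4 was 0.45, Nr1h3 −0.80 and Ppara −0.91 without normoglycemic 2, and 1.02, −0.31 and −0.35 without normoglycemic 1, and Pparg −0.61 without normoglycemic 1 and −0.21 without normoglycemic 2.

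**Figure D5:**
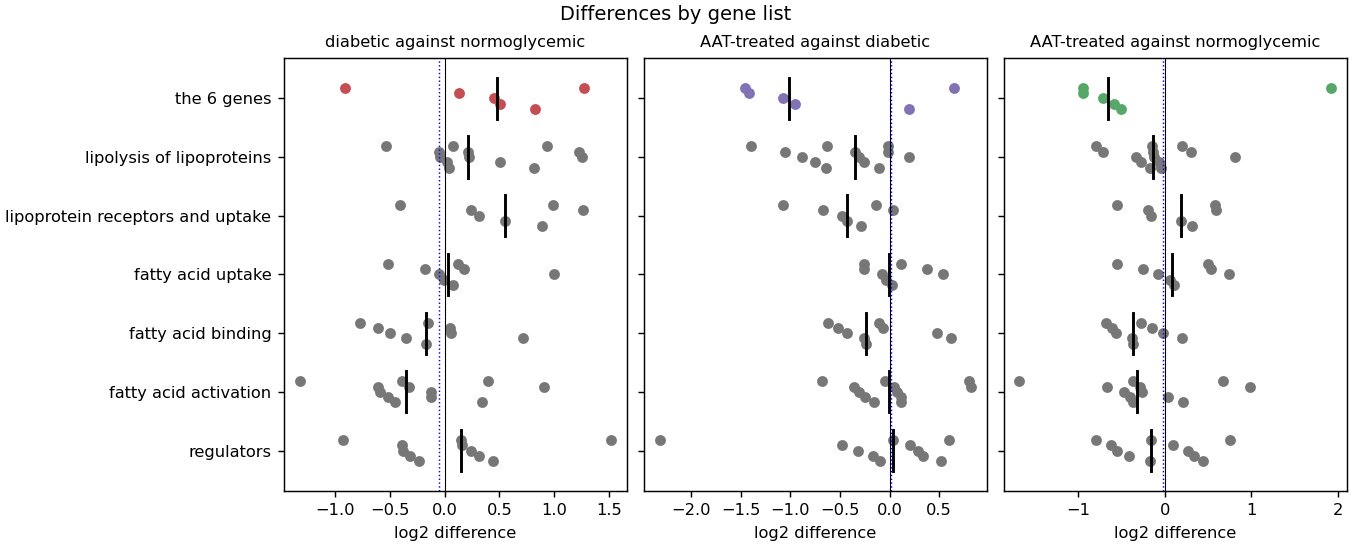
Log2 differences (horizontal axes) of the 6 genes, coloured, and of 60 other pathway genes, grey, by list in the 3 comparisons; black bars are medians and the dotted line the median of all genes. The 6 genes have medians of 0.48, −1.02 and −0.65.

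The genes closest to each member were found by the root mean square difference of log2 values over the 6 arrays, each gene centred on its own mean. Closest to Vldlr were Ahi1 (0.17), Lrrfip1 (0.21) and Ptgis (0.23), where the values of Vldlr themselves lay 0.89 from their mean. Ptgis, the prostacyclin synthase, had 884 and 1708 in normoglycemic fat, 2663 and 2572 in diabetic fat and 3546 and 4028 after AAT treatment. Closest to Fabp4 were Car3 (0.073), Sptb (0.080) and Irx2 (0.086). Closest to Cd36 were Stard3 (0.26), Nrp1 (0.29) and Tmem182 (0.29), and all 3 were lowest on AAT-treated 2 and next lowest on normoglycemic 1. For Lpl they were Rgs19 (0.068), 1700036A12Rik (0.079) and Odf2l (0.11), for Slc27a1 Slc36a2 (0.15), Chchd6 (0.17) and 6430590A07Rik (0.18), and for Fabp5 Taf1c (0.29), Abcb8 (0.34) and Limch1 (0.35). These are the smallest distances among 13040 genes over few arrays, and describe pattern alone.

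Among the 6 genes, the closest pair was Lpl with Slc27a1 at 0.47, followed by Cd36 with Fabp5 at 0.49. Many other genes lay nearer: by distance among all genes Slc27a1 ranked 955 from Lpl, and Lpl 442 from Slc27a1. Fabp5 ranked 49 from Cd36, and Cd36 27 from Fabp5. Fabp4 and Cd36 were the farthest apart at 1.70. Distances from Vldlr to the other 5 ran from 1.27 to 1.39.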

How the data were processed

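RNA of mouse fat was hybridised to 6 arrays after Trizol extraction and single-cycle biotin labelling, per the labels' protocols. The authors computed the deposited intensities, which are linear, with MAS5, per the submitters' processing notes; its version is not given in the sources used here. Each array's trimmed mean lay between 499.86 and 499.88, so its scaling was kept, and 0 pairs of arrays held identical values. Array medians were 175.7 to 272, and precision is limited by having 6 arrays.

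Probe sets were named through the platform annotation and RefSeq gene identifiers: 34945 had 1 symbol, of which 34741 matched, and 932 with several symbols and 9160 with none were left out, as were 64 controls. Values were taken as log2(signal + 75), 75 being near the 25th percentile of all values, which understates differences of weak genes. Probe sets with a mean signal above 164.5 (the 40th percentile) were kept, and the highest stood for its gene. Groups were compared with limma 3.58.1 in R 4.3.3 (3 group means over 6 arrays, eBayes with trend, 2-sided, Benjamini-Hochberg over 13040 genes, 3 residual and 5.36 prior degrees of freedom). No exact permutation test was run, as 2 arrays against 2 can reach 0.333 at best. The fit was first tested on simulated data with 200 changed genes. At the adjusted threshold it recovered 0 to 0.28% of 2-fold, 11.0 to 12.5% of 4-fold and 40.1 to 41.3% of 8-fold changes. Most differences of the size reported here would therefore be missed.

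The members, gene lists and rule for named genes were chosen with earlier results of these data known. Named were all members, 12 pathway genes set by name, the 3 of each direction with the smallest p in each comparison, and the 3 genes closest to each member. Marker genes named beside them illustrate their lists and were chosen after their values were seen. Alternatives covered pseudocount, filter, scaling, probe set choice, eBayes settings, covariates, a replicate block and each array left out.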

Additional observations from a re-analysis of the deposited data

How the results depend on the processing

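In the settings tried 0 of the 6 genes passed the adjusted threshold by limma. Of their 18 differences 4 kept their sign in all 18 settings: Vldlr in each comparison and Lpl in AAT-treated against normoglycemic fat. Not every setting could move them, since the eBayes settings, the filter and the replicate block leave these differences as they are. An array left out moves only the comparisons with its own group. Vldlr ranged from 0.43 to 1.87, from 0.42 to 0.89 and from 1.16 to 2.52. Of 48 differences of named pathway genes 16 kept their sign. Over all genes the count of 0 became 1 with the hybridisation controls as a covariate (diabetic against normoglycemic, and AAT-treated against diabetic) and 1 without the filter (AAT-treated against diabetic). Leaving out 1 array gave 0 to 3 genes in AAT-treated against normoglycemic fat, 3 without normoglycemic 2. Scaling to equal medians moved the median of all genes from −0.025 to 0.14 in that comparison and from −0.055 to 0.066 in diabetic against normoglycemic fat, and genes with an unadjusted p under 0.05 were 488 higher and 142 lower, and 525 higher and 375 lower. The cause of each change of sign below was not tested.

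With a pseudocount of 20 the values in AAT-treated against diabetic fat were 0.015 for Lmf1. Under quantile normalization the values in diabetic against normoglycemic fat were 0.037 for Fabp4 and −0.085 for Angptl4. In AAT-treated against diabetic fat they were −0.11 for Fabp4 and 0.025 for Lmf1. With arrays scaled to equal medians the values in diabetic against normoglycemic fat were 0.0075 for Acsl5 and 0.094 for Apoe. For AAT-treated against diabetic fat the values were 0.026 for Lmf1. Those in AAT-treated against normoglycemic fat were 0.11 for Cav1, 0.036 for Apoe and 0.14 for Gpihbp1. With the mean of all kept probe sets the values in diabetic against normoglycemic fat were −0.081 for Fabp5. The values in AAT-treated against diabetic fat were −0.54 for Fabp4. With the hybridisation controls as a covariate the values in diabetic against normoglycemic fat were −0.095 for Lpl, −1.13 for Cd36, −0.72 for Fabp5, −0.18 for Cav1, −1.13 for Angptl4 and −2.12 for Gpihbp1. In AAT-treated against diabetic fat they were −0.096 for Fabp4, 0.076 for Angptl4, 0.091 for Apoe and 0.51 for Gpihbp1.

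With the beta-actin ratio as a covariate the values in diabetic against normoglycemic fat were −2.53 for Lpl, −9.60 for Cd36, 4.06 for Fabp4, −5.87 for Fabp5, −3.04 for Slc27a1, 0.65 for Acsf2, 0.0030 for Acsl4, 1.95 for Acbd3, −3.26 for Cav1, −7.47 for Angptl4, −13.9 for Gpihbp1, −0.051 for Lmf1, −2.28 for Sel1l, −3.03 for Lrp1 and −0.18 for Sorl1. For AAT-treated against diabetic fat the values were 0.38 for Lpl, 4.54 for Cd36, −2.52 for Fabp4, 2.02 for Fabp5, 0.69 for Slc27a1, 1.10 for Acsl3, −0.093 for Acsl4, 1.83 for Acsl5, −0.86 for Acbd3, 1.62 for Cav1, 3.79 for Angptl4, 1.77 for Apoe, 7.43 for Gpihbp1, 0.46 for Lmf1, 1.85 for Lrp1 and 0.98 for Ppargc1b. Those in AAT-treated against normoglycemic fat were 1.54 for Fabp4, −1.18 for Lrp1 and 0.00041 for Nr1h3. The ratio has 94.4% of its variance between groups, so these values extrapolate far.

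Leaving out 1 array at a time gave ranges that cross 0, in diabetic against normoglycemic fat, of −0.78 to 1.69 for Cd36, −0.58 to 1.59 for Fabp5, −0.72 to 1.07 for Cav1, −0.93 to 0.98 for Angptl4, −1.51 to 1.94 for Gpihbp1, −0.41 to 0.17 for Acsl5, −0.34 to 0.25 for Apoe and −0.23 to 0.49 for Lpl. For AAT-treated against diabetic fat the values were −0.52 to 0.91 for Fabp4, −0.68 to 0.46 for Apoe, −0.70 to 0.39 for Acsl3, −0.038 to 0.28 for Acsl4, −1.15 to 0.64 for Cav1, −0.59 to 0.57 for Lmf1, −1.003 to 0.42 for Lrp1, −2.33 to 0.42 for Cd36, −0.84 to 0.35 for Acsl5, −1.32 to 0.70 for Angptl4 and −2.20 to 1.69 for Gpihbp1. Those in AAT-treated against normoglycemic fat were −1.88 to 0.87 for Cd36, −2.04 to 0.14 for Fabp5, −0.93 to 0.78 for Cav1, −1.29 to 0.73 for Angptl4, −0.72 to 0.42 for Apoe, −1.99 to 1.90 for Gpihbp1, −1.42 to 0.00081 for Fabp4, −0.12 to 1.31 for Lrp1, −1.33 to 0.14 for Slc27a1 and −0.96 to 0.23 for Acsl5. The lone array of a group was assumed to vary like the others.

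Leaving out 2 arrays together and testing each probe set separately were added after seeing the data; the latter called 0 of the 6 genes. Without both normoglycemic 1 and AAT-treated 2 the values in diabetic against normoglycemic fat were −0.78 for Cd36, −0.58 for Fabp5, −0.68 for Cav1, −0.93 for Angptl4 and −1.51 for Gpihbp1. The values in AAT-treated against diabetic fat were 0.42 for Cd36, −0.52 for Fabp4, 0.39 for Acsl3, 0.35 for Acsl5, 0.0070 for Cav1, 0.70 for Angptl4, 0.46 for Apoe, 1.69 for Gpihbp1, 0.073 for Lmf1 and 0.42 for Lrp1. In AAT-treated against normoglycemic fat they were 0.15 for Slc27a1, −0.37 for Acot11, 0.21 for Acsl3, 0.21 for Apoe and 0.17 for Gpihbp1.

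The titles number the duplicates of each group, but same-numbered arrays did not deviate together: over genes their deviations correlated at 0.075, −0.51 and −0.12. With a replicate block the Vldlr difference between AAT-treated and normoglycemic fat was 1.92 ± 0.39 (adjusted p = 0.993 by limma), and 0 genes passed in each comparison.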
